A study of Rattus norvegicus with 12 samples.

Results

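The genes of the autophagy machinery and of the receptors that select mitochondria for degradation were examined in rat left ventricle after myocardial infarction. The list held 45 genes chosen by symbol, and 44 of them had a row in the table of read counts, out of 30560 genes listed and 18182 tested. Atg4b was not analysed here. All 44 passed the filter of at least 10 reads summed over the 12 rats, the lowest being Atg101 with 269 reads. By role, 15 genes act in initiation, 13 in conjugation and 16 as cargo receptors or their regulators. The animals were male Wistar rats (called Wistar Han in the study's results) operated on at 7 weeks of age, with 4 rats in each of 3 groups and 1 library per rat. In the MI group the left anterior descending coronary artery was ligated and vehicle was given by gavage. In the MI + UA group the same ligation was followed by urolithin A (UA), a gut microbial metabolite of ellagitannins known to induce mitophagy. In the Sham group the chest was opened without ligation, and vehicle was given. Treatment was daily for 8 weeks in each group. The study's methods give the UA preparation as 50 mg/ml from the day after surgery, while its results describe another dose and a later start. RNA came from 20 µm sections of formalin-fixed, paraffin-embedded tissue of the left ventricle, where infarcted and surviving muscle were not separated. The study's RNA methods do not say which of the apical, middle and basal blocks were cut.

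Autophagy encloses cytoplasm in a double membrane, the autophagosome, which fuses with the lysosome for degradation. The ULK1 kinase complex and the class III phosphatidylinositol 3-kinase start the membrane, ubiquitin-like conjugation systems attach LC3 and GABARAP proteins to it, and receptors that bind LC3 bring the cargo. In mitophagy the cargo is a mitochondrion, marked either by ubiquitin after PINK1 builds up on a damaged organelle or by receptors anchored in its outer membrane. Cardiac muscle is densely packed with mitochondria and relies on mitophagy to remove damaged ones. Transcript levels do not measure the flux through this pathway, and several of its steps are controlled by phosphorylation and ubiquitin.

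Levels are given as CPM, read counts scaled to a common library size by the trimmed mean of M values (TMM), and differences as log2 fold changes with their standard error (SE). Reads on genes numbered 6228706 to 8958828 in Sham, 6829591 to 12743184 in MI and 6819444 to 19031695 in MI + UA, and 13 mitochondrially encoded genes took 50.2% to 58.6% of them. Rat 66 was labelled as treated with UA but stands with the vehicle-treated MI rats in a supplementary list of the study, and it was counted by its label. All 11 cardiomyocyte markers tested (Myh6 and Tnnt2 among them) were above 0 in each rat. The fibroblast and macrophage markers were too, so detection alone does not bear out the heart muscle label. Values by rat are in the order of rats 12, 17, 32 and 38 for Sham, 36, 57, 61 and 89 for MI, and 29, 58, 64 and 66 for MI + UA. The same MI rats enter both MI versus Sham and MI + UA versus MI, and the same Sham rats enter both comparisons with Sham.

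After infarction, 9 of the 44 genes fell relative to Sham and 0 rose at an adjusted p under 0.05 in edgeR's quasi-likelihood test. They were Ulk1, Atg2a, Wipi1, Map1lc3a, Sqstm1, Calcoco1, Pink1, Fundc1 and Nipsnap2, and their log2 fold changes ran from -0.33 to -0.55. The 9 genes are 20.5% of the 44. Over all 18182 genes tested, 5.53% were lower and 5.82% higher by the same rule, and over the 11481 genes at least as abundant as the lowest member 8.52% were lower and 8.14% higher. At an unadjusted p under 0.05, 15 of the 44 were lower and 1, Uvrag, was higher, where 11.3% and 12.6% of all genes tested were so. The median log2 fold change was -0.17 over the 44 genes and 0.03 over all genes tested, with 33 members below 0 and 11 above it. The MI and Sham rats did not overlap for 10 members that were lower and 1 that was higher, where 7.56% and 8.12% of all genes tested were so. In bulk tissue fewer cells of a type and less RNA per cell cannot be told apart, and the cardiomyocyte markers given further on had a median log2 fold change of -0.45 here. Leaving out each rat in turn gave between 7 and 10 genes.

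**Figure D1:**
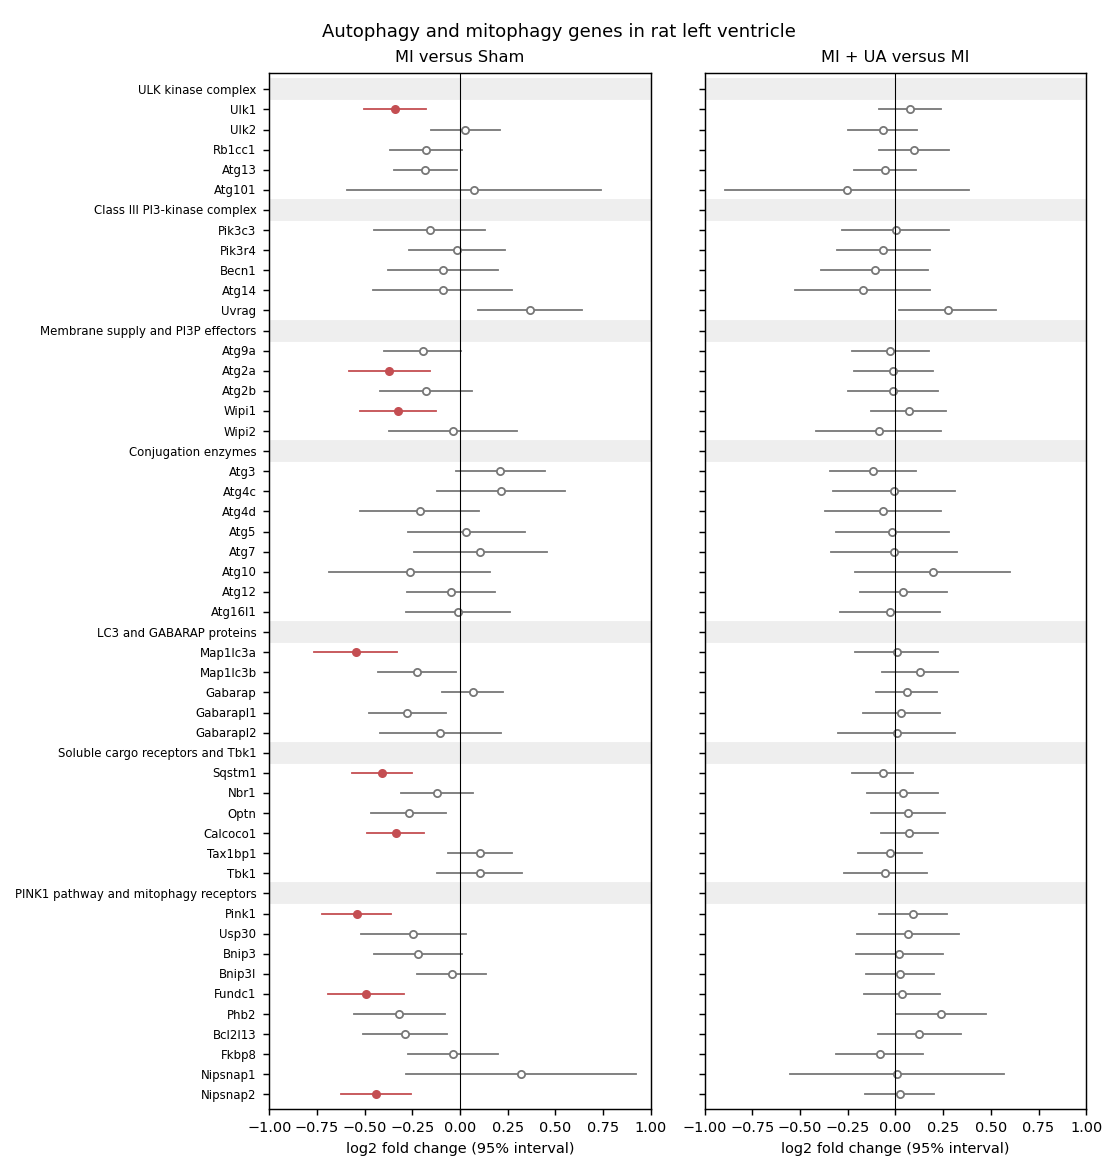
Log2 fold change of each of the 44 genes in MI versus Sham (left) and in MI + UA versus MI (right), with 95% intervals as bars, grouped by role. Filled red points mark an adjusted p under 0.05 in edgeR's test. The 9 filled points all lie below 0 on the left, from -0.33 to -0.55, and 0 points are filled on the right.

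Among the 15 initiation genes, 3 were lower in MI, against 1 of 13 conjugation genes and 5 of 16 cargo receptors. The median log2 fold changes were -0.16, -0.05 and -0.26. Whether these shares differ between the roles was not tested. Ulk1 (ENSRNOG00000037505) encodes the kinase that starts autophagosome formation when mTORC1 releases it. It was at 139, 125, 149 and 142 CPM in the Sham rats, 115, 111, 104 and 107.7 in the MI rats and 118, 106, 119 and 118 in the MI + UA rats. Every MI rat was below every Sham rat, and the MI and MI + UA rats overlapped. Ulk1 fell by 21.1% in MI, a log2 fold change of -0.34 (SE 0.08, edgeR adjusted p = 0.00574). Its paralog Ulk2 was at 40.4 ± 3.25 CPM in Sham and 41.3 ± 2.09 CPM in MI (SD, n = 4 each), with an interval of -0.15 to 0.21 for its log2 fold change. The other subunits of the complex, Rb1cc1 (the scaffold FIP200), Atg13 and Atg101, had log2 fold changes of -0.18, -0.18 and 0.08, and none passed the test. Atg101 was the least precise of all 44, with an SE of 0.32.

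Atg2a (ENSRNOG00000060707) encodes a lipid transfer protein that feeds the growing membrane. The Sham rats were at 41.9, 40.4, 43.4 and 42.0 CPM, the MI rats at 36.7, 32.5, 29.8 and 30.6 and the MI + UA rats at 35.4, 26.1, 34.1 and 32.6. Both infarcted groups lay wholly below Sham. The log2 fold change in MI was -0.37 (SE 0.10, edgeR adjusted p = 0.0200), and without Sham rat 32, MI rat 61 or MI rat 89 its adjusted p rose to between 0.0574 and 0.0703. Wipi1 (ENSRNOG00000003827) encodes an effector that binds the lipid phosphatidylinositol 3-phosphate on the forming membrane. It was at 69.0, 74.5, 64.8 and 72.3 CPM in Sham, 66.2, 51.9, 49.2 and 56.1 in MI and 63.2, 56.6, 54.3 and 60.2 in MI + UA. MI rat 36 lay inside the Sham range, so Wipi1 was the 1 gene of the 9 whose groups overlapped. Its log2 fold change was -0.33 (SE 0.10, edgeR adjusted p = 0.0297), and the call was lost without Sham rat 17 or 38 or without MI rat 57, 61 or 89, with adjusted p from 0.0654 to 0.110. Atg2b, Atg9a (a lipid scramblase on the vesicles that seed the membrane) and Wipi2 had log2 fold changes of -0.18, -0.20 and -0.04 without passing the test.

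Of the 5 genes of the class III phosphatidylinositol 3-kinase 0 were called in MI versus Sham by edgeR or DESeq2, and 1, Uvrag, had an unadjusted p under 0.05. With 5.53% of all genes tested called lower and 5.82% higher by edgeR, 0 of 5 does not set these genes apart. Pik3c3 (the lipid kinase Vps34), Pik3r4 (its regulatory subunit), Becn1 (Beclin 1) and Atg14 (the subunit that directs the kinase to autophagosome formation) lay between -0.16 and -0.02 in log2 fold change. Uvrag (ENSRNOG00000016206), which takes the place of Atg14 in another form of the complex, was at 9.91, 10.5, 7.58 and 9.18 CPM in Sham, 12.2, 11.4, 12.9 and 11.6 in MI and 15.9, 15.2, 14.2 and 13.0 in MI + UA. The 3 groups did not overlap, with Sham lowest and MI + UA highest. In MI versus Sham its log2 fold change was 0.37 (SE 0.13) and missed the threshold (edgeR adjusted p = 0.0777). With rat 66 counted among the MI rats it passed, with a log2 fold change of 0.39 (edgeR adjusted p = 0.0420).

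In conjugation, the 8 enzymes and carriers had 0 genes past the threshold in edgeR or DESeq2, 0 at an unadjusted p under 0.05, and a median log2 fold change of 0.01. Over all genes tested, edgeR called 5.53% lower and 5.82% higher, and 11.3% and 12.6% at an unadjusted p under 0.05. At those shares 0 of 8 does not set these genes apart. The 8 were Atg7 and Atg3 (the activating and conjugating enzymes for LC3), Atg10 (the conjugating enzyme for Atg12), Atg5, Atg12 and Atg16l1 (the complex that places LC3 on the membrane) and the LC3 proteases Atg4c and Atg4d. Their log2 fold changes ran from -0.26 for Atg10 to 0.22 for Atg4c, and 4 of the 8 were above 0. Atg5 was at 9.10 ± 1.59 CPM in Sham and 9.34 ± 0.698 CPM in MI, and Atg7 at 6.79 ± 0.8294 and 7.26 ± 0.823 CPM (SD, n = 4 each). Their intervals were -0.27 to 0.34 and -0.24 to 0.45, so that changes of the size seen for Atg2a lay outside both at the lower end.

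Of the 5 LC3 and GABARAP genes, whose products these enzymes attach to the membrane, 1 was lower in MI. Map1lc3a (ENSRNOG00000025443), encoding LC3A, was at 92.1, 106, 119.9 and 128 CPM in Sham, 74.1, 80.8, 84.5 and 66.6 in MI and 81.5, 67.4, 80.9 and 76.4 in MI + UA. The lowest Sham rat was above the highest rat of either infarcted group. It fell by 31.5% in MI, the largest decrease of the 44 genes (log2 fold change -0.55, SE 0.10, edgeR adjusted p = 0.00145). Map1lc3b, encoding LC3B, was at 39.8, 38.7, 43.1 and 42.2 CPM in Sham and 39.3, 33.2, 30.8 and 36.3 in MI, with 1 MI rat inside the Sham range. Its log2 fold change was -0.22 (SE 0.10, edgeR adjusted p = 0.157). Gabarapl1 was at 43.8, 49.4, 43.9 and 47.7 CPM in Sham and 35.5, 34.8, 39.3 and 42.7 in MI without overlap, and missed the threshold at a log2 fold change of -0.28 (SE 0.10, edgeR adjusted p = 0.0744). Gabarap was at 143 ± 7.63 CPM in Sham and 150.0 ± 9.42 CPM in MI (SD, n = 4 each), with an interval of -0.09 to 0.23 on the log2 scale. Gabarapl2 had a log2 fold change of -0.10 with overlapping groups. These families have close copies in the genome, and reads that did not align uniquely stand on a summary line of the table, which was left out.

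Among the 6 soluble receptors and their kinase, Sqstm1 and Calcoco1 were lower in MI. Sqstm1 (ENSRNOG00000003147) encodes p62, which binds ubiquitin on the cargo and LC3 on the membrane and is itself degraded with the cargo. It was at 161, 182, 178 and 190.4 CPM in Sham, 132, 134, 130.2 and 139.6 in MI and 132, 118, 129 and 132 in MI + UA. All MI and MI + UA rats lay below all Sham rats. In MI it fell by 24.7% (log2 fold change -0.41, SE 0.08, edgeR adjusted p = 0.00116). Calcoco1 (ENSRNOG00000015447), a receptor for the endoplasmic reticulum and Golgi, was at 116, 114, 114 and 115 CPM in Sham, 90.8, 88.8, 96.4 and 88.0 in MI and 95.1, 97.9, 91.2 and 98.5 in MI + UA. Its Sham rats were the most alike of any member, with a coefficient of variation of 0.804%. The log2 fold change in MI was -0.34 (SE 0.07, edgeR adjusted p = 0.00342). Optn encodes optineurin, a ubiquitin receptor recruited to mitochondria in PINK1-dependent mitophagy, and was at 96.5, 114, 92.8 and 103 CPM in Sham, 92.8, 80.6, 82.6 and 80.6 in MI and 93.5, 74.2, 85.4 and 98.2 in MI + UA. The MI and Sham rats met at 92.8 CPM, the level of MI rat 36 and of Sham rat 32. Optn missed the threshold (log2 fold change -0.27, SE 0.09, edgeR adjusted p = 0.0742), and DESeq2 called it lower at an adjusted p of 0.0426. Tax1bp1 and Tbk1, the kinase that phosphorylates these receptors, were slightly above 0, at 0.10 and 0.10, and Nbr1 was at -0.12. None of these 3 passed the test.

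Of the 10 genes of PINK1 signalling and mitochondrial receptors, 3 were lower in MI and 9 had a log2 fold change below 0, with a median of -0.27. Pink1 (ENSRNOG00000015385) encodes the kinase that builds up on depolarised mitochondria and phosphorylates ubiquitin there. Its CPM was 398, 458, 447 and 458 in Sham, 321, 308, 284 and 296 in MI and 331, 282, 306 and 368 in MI + UA. Every Sham rat was above every infarcted rat. Pink1 fell by 31.3% in MI, with a log2 fold change of -0.54 (SE 0.09) and the lowest adjusted p of the 44 genes (edgeR adjusted p = 0.000294). Usp30, the mitochondrial deubiquitinase that opposes PINK1-dependent mitophagy, was at 10.0 ± 0.721 CPM in Sham and 8.43 ± 0.756 CPM in MI (SD, n = 4 each) and did not pass the test (log2 fold change -0.24, edgeR adjusted p = 0.273).

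Fundc1 (ENSRNOG00000003470), a receptor in the outer mitochondrial membrane that binds LC3 directly, was at 36.3, 34.9, 38.04 and 32.1 CPM in Sham, 22.9, 25.2, 25.2 and 27.0 in MI and 24.9, 25.6, 23.4 and 28.4 in MI + UA. No infarcted rat reached the lowest Sham rat. Its log2 fold change was -0.49 in MI (SE 0.10, edgeR adjusted p = 0.00183). Nipsnap2 (ENSRNOG00000023919), a matrix protein that is displayed on damaged mitochondria and recruits autophagy receptors, was at 212, 246, 245 and 261 CPM in Sham, 158, 187, 190.2 and 176 in MI and 177, 172, 169.6 and 201 in MI + UA. The groups separated in the same way. Nipsnap2 had a log2 fold change of -0.44 in MI (SE 0.09, edgeR adjusted p = 0.00205). Nipsnap1 had 282 reads in all and a log2 fold change of 0.32 with an interval of -0.28 to 0.92, too wide to read a direction from.

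The hypoxia-inducible receptors Bnip3 and Bnip3l (NIX) were not among the genes that passed the test. Bnip3 was at 112, 107.5, 140.4 and 129 CPM in Sham and 95.4, 128, 97.4 and 99.4 in MI, with rat 57 inside the Sham range and the other 3 MI rats below it (log2 fold change -0.22, edgeR adjusted p = 0.233). Bnip3l was at 53.9 ± 4.20 CPM in Sham and 52.3 ± 1.82 CPM in MI (SD, n = 4 each), an interval of -0.22 to 0.14 on the log2 scale. Phb2, the inner membrane prohibitin exposed when the outer membrane ruptures, was at 28.7, 29.7, 31.6 and 41.8 CPM in Sham and 23.8, 27.4, 27.9 and 27.2 in MI without overlap (log2 fold change -0.32, edgeR adjusted p = 0.0823). Bcl2l13 and Fkbp8, both outer membrane receptors, had log2 fold changes of -0.29 and -0.04 without passing the test.

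**Figure D2:**
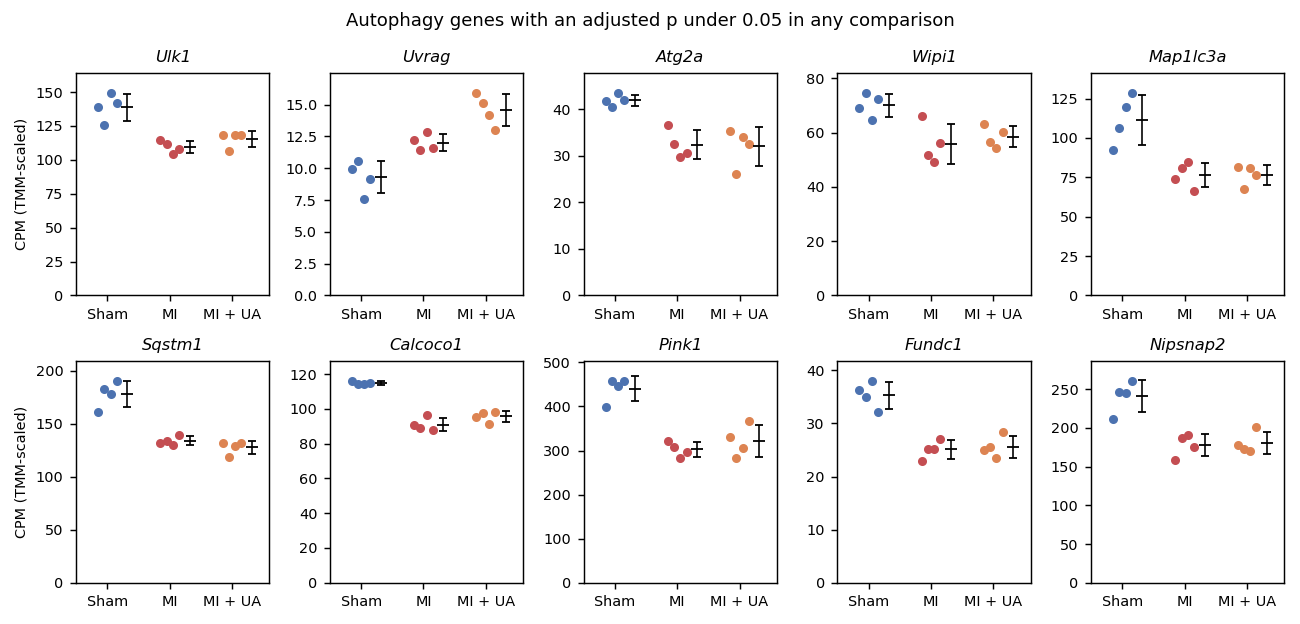
Level of the 10 genes with an adjusted p under 0.05 in any of the 3 comparisons, in CPM on axes that start at 0. Each point is 1 rat, and the bar to its right is the mean ± SD of 4 rats. In 8 panels all infarcted rats lie below all Sham rats, in the Wipi1 panel MI rat 36 lies within the Sham range, and in the Uvrag panel the order is reversed.

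Promoter sequence was available for 38 of the 44 genes from RefSeq (build GRCr8) and was searched over the 250 bases before the annotated start. The search used CACGTG, the E-box core of the element bound by TFEB, a transcription factor of lysosomal and autophagy genes, and GGGCGG, the GC box bound by Sp1. Both strands were read, and a match of one motif can share at most 1 base with a match of the other. CACGTG was present in 5 of the 38 (Atg3, Atg5, Bnip3, Pink1 and Tbk1), or 13.2%, in 5.59% of all 33469 promoters of this length and in 6.16% of those of protein-coding genes. Among the 9 genes lower in MI, 7 had a promoter sequence, and of these Pink1 alone held CACGTG, while 5 of the 7 held a GC box. GC boxes were in 26 of the 38, or 68.4%, in 30.5% of all promoters and in 38.9% of the 21851 promoters of protein-coding genes. These are matches of letters, with no measurement of binding. The sequences of Pink1 and Sqstm1, the genes with the lowest adjusted p in MI versus Sham, of Bnip3, which holds CACGTG and did not pass the test, and of Uvrag, which was higher in MI + UA than in Sham, are shown 5′ to 3′ on the gene's strand with both motifs in capitals. They end just before the start, at chr5:155825951-155826200 (minus strand), chr10:35037751-35038000 (minus strand), chr1:203154963-203155212 (minus strand) and chr1:162854349-162854598 (minus strand).
Pink1: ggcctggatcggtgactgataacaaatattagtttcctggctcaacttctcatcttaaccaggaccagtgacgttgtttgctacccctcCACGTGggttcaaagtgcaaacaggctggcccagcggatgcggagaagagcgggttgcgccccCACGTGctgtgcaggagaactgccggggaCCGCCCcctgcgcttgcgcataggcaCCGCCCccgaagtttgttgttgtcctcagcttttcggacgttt
Sqstm1: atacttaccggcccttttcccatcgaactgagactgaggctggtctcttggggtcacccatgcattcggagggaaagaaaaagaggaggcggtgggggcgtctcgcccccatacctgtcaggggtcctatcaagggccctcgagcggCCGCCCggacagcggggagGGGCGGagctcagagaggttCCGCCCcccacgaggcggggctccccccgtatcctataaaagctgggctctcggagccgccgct
Bnip3: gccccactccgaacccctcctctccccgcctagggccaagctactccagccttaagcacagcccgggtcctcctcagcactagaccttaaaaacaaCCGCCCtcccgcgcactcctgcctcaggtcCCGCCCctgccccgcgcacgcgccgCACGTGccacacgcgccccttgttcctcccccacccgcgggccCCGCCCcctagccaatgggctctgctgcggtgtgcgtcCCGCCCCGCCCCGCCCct
Uvrag: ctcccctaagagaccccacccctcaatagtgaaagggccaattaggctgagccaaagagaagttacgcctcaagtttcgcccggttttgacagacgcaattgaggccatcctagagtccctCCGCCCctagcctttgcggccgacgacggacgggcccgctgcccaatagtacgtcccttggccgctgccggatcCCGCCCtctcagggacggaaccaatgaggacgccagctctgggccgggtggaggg
CACGTG stood at 2 places in the Pink1 sequence, at 1 in Bnip3 and at 0 in the sequences of Sqstm1 and Uvrag, and each of the 4 held at least 2 GC boxes.

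UA after infarction was compared with infarction alone to ask whether it moved these genes. By edgeR's quasi-likelihood test 0 of the 44 genes had an adjusted p under 0.05 (lowest adjusted p = 1.00), as did 0% of all genes tested, and DESeq2 also called 0. The median log2 fold change was 0.0055 over the 44 genes and 0.0047 over all genes tested, with 24 members above 0 and 20 below. At an unadjusted p under 0.05 there were 2 members, where 3.79% of all genes tested passed, and both were higher with UA. Uvrag had a log2 fold change of 0.27 (SE 0.12, edgeR unadjusted p = 0.0352) and Phb2 of 0.24 (SE 0.11, edgeR unadjusted p = 0.0467). Phb2 was at 30.1, 28.4, 33.3 and 33.3 CPM in MI + UA, above all 4 MI rats, and its Sham and MI + UA rats overlapped. These 2 were also the only members whose MI and MI + UA rats did not overlap, in a comparison where 2.34% of all genes tested did not.

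For the 9 genes that were lower in MI, the intervals of MI + UA versus MI all held 0 and lay between -0.23 and 0.27 on the log2 scale. Pink1 averaged 303 ± 16.2 CPM in MI and 322 ± 36.6 CPM in MI + UA (SD, n = 4 each), against 440.4 ± 28.5 CPM in Sham. The MI + UA rats of Pink1 ran from below the lowest MI rat to above the highest, and rat 66 was the highest. Its log2 fold change with UA was 0.09 (interval -0.09 to 0.27) and became -0.04 with rat 66 counted in MI. Fundc1 and Nipsnap2 were at 0.03 (interval -0.16 to 0.23) and 0.02 (interval -0.16 to 0.20) and also turned below 0 without rat 66. Sqstm1 was at -0.07 (interval -0.23 to 0.09), Map1lc3a at 0.01 (interval -0.21 to 0.22), and Optn at 0.06 (interval -0.13 to 0.26). Over all 44 genes, 25 had both interval bounds within 0.3 of 0, and the widest interval was that of Atg101, -0.90 to 0.38.

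Against Sham, the MI + UA rats had 8 genes lower and 1 higher. Of the 9 genes lower in MI versus Sham, 8 were also lower here, and Wipi1 was not past the threshold (log2 fold change -0.26, SE 0.09, edgeR adjusted p = 0.100). Over all genes tested, 4.27% were lower and 5.16% higher. Pink1 had a log2 fold change of -0.45 (edgeR adjusted p = 0.00189), Map1lc3a of -0.54 (edgeR adjusted p = 0.00199), Sqstm1 of -0.48 (edgeR adjusted p = 0.000398), Fundc1 of -0.46 (edgeR adjusted p = 0.00352) and Nipsnap2 of -0.42 (edgeR adjusted p = 0.00355). Ulk1, Atg2a and Calcoco1 were closer to the threshold, at -0.27 (edgeR adjusted p = 0.0334), -0.38 (edgeR adjusted p = 0.0191) and -0.26 (edgeR adjusted p = 0.0214). Each of these 3 lost its call when certain single rats were left out, with adjusted p up to 0.113. Uvrag was the 1 gene that rose, by 55.7% (log2 fold change 0.64, SE 0.13, edgeR adjusted p = 0.00268).

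In all, 8 pairs of related genes were set against each other within each rat, as a log2 ratio that does not depend on how libraries were scaled. Only the difference of a ratio between groups is read, since the ratio itself depends on transcript length. The two-sided exact permutation test allows no p below 0.0286 with 4 rats against 4, and over 24 tests the lowest adjusted p was 0.137, so no ratio passed. Ulk1 to Ulk2 was 1.62, 1.64, 1.95 and 1.91 in Sham and 1.51, 1.35, 1.41 and 1.34 in MI, a difference of -0.37 without overlap (exact permutation p = 0.0286, adjusted p = 0.137). Its groups overlapped in MI + UA versus Sham (difference -0.23, exact permutation p = 0.171, adjusted p = 0.369). Gabarapl1 to Gabarap was -1.59, -1.56, -1.73 and -1.65 in Sham, -1.93, -2.15, -1.97 and -1.86 in MI and -1.996, -2.10, -2.05 and -1.89 in MI + UA. Both infarcted groups lay below Sham without overlap, by -0.35 and -0.38 (exact permutation p = 0.0286 and adjusted p = 0.137 for each). Map1lc3a to Map1lc3b was 1.21, 1.45, 1.47 and 1.60 in Sham, 0.91, 1.28, 1.45 and 0.88 in MI and 1.01, 1.01, 1.13 and 0.88 in MI + UA. Of its MI rats 2 lay inside the Sham range (difference -0.30, exact permutation p = 0.143), while its MI + UA rats lay below it (difference -0.43, exact permutation p = 0.0286, adjusted p = 0.137). Nipsnap2 to Nipsnap1 differed by -0.76 in MI versus Sham without overlap (exact permutation p = 0.0286, adjusted p = 0.137), with 282 reads in all for Nipsnap1. The difference of that ratio in MI + UA versus Sham was -0.76 with overlapping groups (exact permutation p = 0.0571, adjusted p = 0.229).

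**Figure D3:**
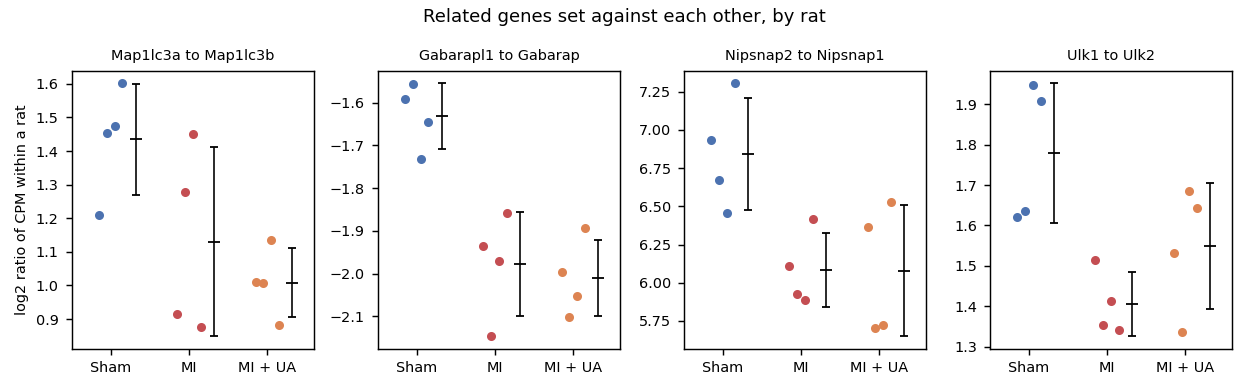
Log2 ratio of the CPM of related genes within each rat, for the 4 pairs whose groups did not overlap in some comparison. Each point is 1 rat and the bar is the mean ± SD of 4 rats, on axes that do not start at 0. For Gabarapl1 to Gabarap the Sham rats run from -1.73 to -1.56 and all infarcted rats lie below them.

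Other genes of the pathway that are not in the list of 45 were counted in the same fit. Of 74 symbols, 67 were tested, and Ncoa4 had a further row with 0 reads, which was not tested. In MI versus Sham 10 were lower and 2 higher, against 5.53% and 5.82% of all genes. Of the lower genes, 4 belong to nutrient and energy signalling. Sesn1, a sestrin that inhibits mTORC1, had a log2 fold change of -0.42 (edgeR adjusted p = 0.00581) and Prkab1, a subunit of the energy sensor AMPK, of -0.42 (edgeR adjusted p = 0.00600). The other 2, named after their values were seen, were Mtor, the kinase that restrains ULK1 (-0.35, edgeR adjusted p = 0.0179), and Prkaa2, another AMPK subunit (-0.33, edgeR adjusted p = 0.0159). Mitf, a transcription factor related to TFEB, had a log2 fold change of -0.42 (edgeR adjusted p = 0.00616), and Wdr45, another phosphatidylinositol 3-phosphate effector, of -0.40 (edgeR adjusted p = 0.0381). Vdac1, a channel of the outer mitochondrial membrane that is ubiquitinated in mitophagy, was at -0.39 (edgeR adjusted p = 0.00275), and Ccpg1, a receptor for autophagy of the endoplasmic reticulum, at -0.38 (edgeR adjusted p = 0.00538). Vmp1, which acts at the contact of endoplasmic reticulum and forming autophagosome, rose from 26.0, 27.4, 28.4 and 25.5 CPM in Sham to 37.7, 41.6, 43.3 and 40.0 in MI without overlap (log2 fold change 0.60, SE 0.12, edgeR adjusted p = 0.00301). Usp35, a deubiquitinase, rose from 5.85 ± 0.782 to 8.72 ± 1.35 CPM (SD, n = 4 each, log2 fold change 0.58, SE 0.16, edgeR adjusted p = 0.0228). Of the 13 genes for fusion of the autophagosome with the lysosome, 0 were called in either direction by edgeR, and 1 had an unadjusted p under 0.05. Over all genes tested, 11.3% were lower and 12.6% higher at that unadjusted level, so these counts do not set the fusion genes apart. In MI + UA versus MI 0 of the 67 were called by edgeR, with 1 at an unadjusted p under 0.05, and in MI + UA versus Sham 7 were lower and 1, Vmp1, was higher, against 4.27% and 5.16% of all genes.

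Marker genes of several cell types differed with infarction. Of 11 cardiomyocyte markers tested, 10 fell in MI versus Sham (median log2 fold change -0.45), and their summed level was 53132 to 59836 CPM in Sham, 37305 to 43783 in MI and 39228 to 51210 in MI + UA. Fibroblast markers were higher for 9 of 10 genes (median 1.05), summing to 1282 to 1621 CPM in Sham, 2485 to 3979 in MI and 2479 to 3960 in MI + UA. Macrophage markers were higher for 8 of 10 (median 0.89), summing to 131 to 150.5 CPM in Sham, 229.6 to 280.1 in MI and 204.8 to 287 in MI + UA. None of these markers was at 0 in any rat. The summed level of the 44 autophagy genes was 2457 to 2706 CPM in Sham, 2113 to 2206 in MI and 2106 to 2323 in MI + UA, with rat 66 highest among the infarcted rats in both this sum and the cardiomyocyte sum. Such sums weigh the most abundant genes. Ttn alone averaged 35322 of the 56777 CPM of the cardiomyocyte sum in Sham. Pink1, the most abundant of the 44, averaged 440 CPM in Sham and 303 in MI. Of 8 endothelial markers 1 was lower, of 4 smooth muscle markers 3 were higher, and of 3 adipocyte markers tested 0 were called in this comparison. In MI + UA versus MI edgeR called 0 markers of any list, while 1 cardiomyocyte, 1 macrophage and 1 smooth muscle marker had an unadjusted p under 0.05. Over all genes tested, 3.79% did. Myh6 was higher with UA without overlap (log2 fold change 0.39, edgeR unadjusted p = 0.00168). Cd163 was lower (-0.41, edgeR unadjusted p = 0.0138), as was Tagln (-0.45, edgeR unadjusted p = 0.0303), both with overlapping groups. The part of cell makeup in the differences of the 44 genes was not tested.

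**Figure D4:**
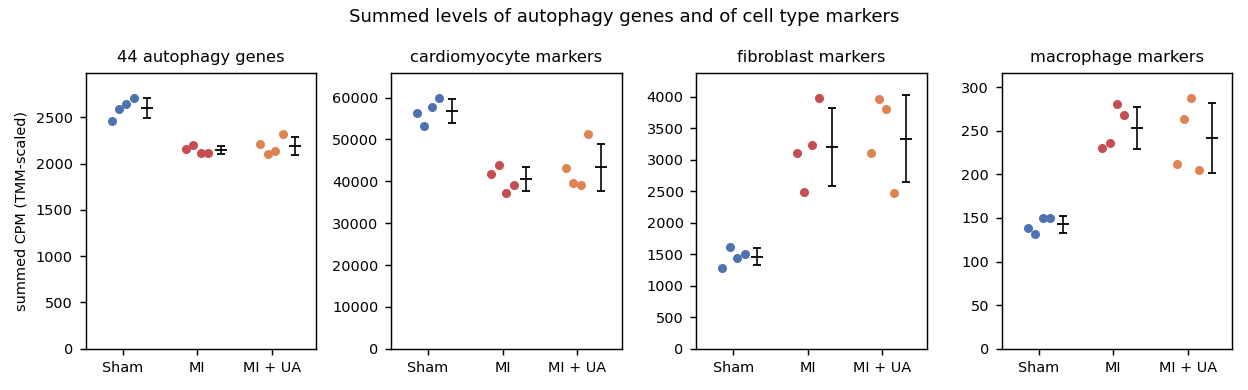
Summed CPM of the 44 autophagy genes and of the cardiomyocyte, fibroblast and macrophage markers in each rat, on axes that start at 0, with the mean ± SD of 4 rats. The sums of the autophagy genes and of the cardiomyocyte markers lie lower in both infarcted groups than in Sham, and the fibroblast and macrophage sums lie higher. A sum weighs the most abundant genes and does not show that every gene in it moved.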

How the data were processed

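Hearts of 12 rats were sequenced as read pairs after depletion of ribosomal RNA, although the labels name the molecule polyA RNA. The authors mapped the reads with STAR 2.6.1c to mRatBN7.2, and deposited raw counts per Ensembl gene from HTSeq, whose strand setting is not given in the sources used here. Of each library's column total, 51.7% to 57.1% lay on 5 summary lines (reads on no gene, ambiguous, of low quality, not aligned or not uniquely aligned) and was left out, and genomic coordinates of the counts were not used. A further MI + UA library that the study describes was not analysed here. Groups came from the labels, and each replicate is a separate rat. Counts of the 18182 genes with at least 10 reads in total were normalised by TMM and tested in edgeR 4.0.16 (quasi-likelihood, R 4.3.3) in a single fit of 3 groups, and p-values were Benjamini-Hochberg adjusted over all of them with a threshold of 0.05. Intervals are at 95%. The members and lists were chosen with earlier results of these data known. Genes past the threshold, Pink1 and Optn are given in full, further members by role, and other pathway genes by the size of their change among those past the threshold, at most 8 per comparison, with Mtor and Prkaa2 added after their values were seen. Alternatives were DESeq2 1.42.0, DESeq2 size factors, TMM without mitochondrially encoded genes, another filter, fits of only the groups compared, rat 66 moved or left out, and leaving out each rat. On simulated counts for MI versus Sham over 18182 genes, edgeR called 29% of changes of 0.5 and 80% of changes of 1 on the log2 scale, and 3 of 17982 unchanged genes. Only 100 genes were changed by each size there, while the data had 1006 genes called lower and 1058 called higher. The adjusted threshold is stricter when fewer genes change, so these shares are not the sensitivity of the comparison in the data.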

Additional observations from a re-analysis of the deposited data

Results flagged for a closer look

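Within each group of 4 rats the highest and lowest values of each of the 44 genes were examined, and 7 of 132 groups held a rat whose gap to its nearest neighbour took a share of the group's range above Dixon's 95% critical value. Gaps and ranges were taken on log2 CPM, while the levels below are printed as CPM. Chance gives about 1 in 20 such groups, or 6.6. For Ulk1 in MI + UA, rat 58 was lowest at 106.5 CPM against 118 to 118.5 in the others (0.965 of the range). For Gabarap in MI, rat 36 was lowest at 136 CPM against 154.5 to 155 (0.972). For Phb2 in MI, rat 36 was lowest at 23.8 CPM against 27.2 to 27.9 (0.841), and for Atg5 in MI it was highest at 10.4 CPM against 8.93 to 9.10 (0.876). For Bnip3 in MI, rat 57 was highest at 128 CPM against 95.4 to 99.4 (0.861). In Sham, rat 32 was lowest for Atg5, at 6.73 CPM against 9.66 to 10.1 (0.889), and for Wipi2, at 7.74 CPM against 11.7 to 12.3 (0.893). Rat 36 thus accounted for 3 of the 7 and rat 32 for 2. Of these genes only Ulk1 passed the test in any comparison. Its difference between MI + UA and Sham had an adjusted p of 0.0334 in edgeR's test with all rats and of 0.100 without rat 58. The log2 fold change was -0.27 and -0.23 in these fits. The call was also lost without Sham rat 12, 32 or 38 or MI + UA rat 29 or 64, so this loss is not particular to rat 58.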

How the results depend on the processing

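The number of members called in MI versus Sham was 9 and lay between 7 and 11 over 16 alternatives. All 9 were called in each alternative that kept all rats, and 7 of them (Atg2a and Wipi1 excepted) in all 16. DESeq2 gave 10 members, a fit of only Sham and MI gave 11, and leaving out single rats gave 7 to 10. In MI + UA versus Sham the number was 9, between 6 (without Sham rat 38) and 10, and 6 of the 9 (Ulk1, Atg2a and Calcoco1 excepted) were called in all 15 alternatives. In MI + UA versus MI it was 0 in all 15, and the members' median log2 fold change lay on both sides of 0, from -0.017 to 0.024. The median log2 fold change of the members moved to between -0.18 and -0.13 in MI versus Sham with single rats left out (-0.13 without Sham rat 38), and to between -0.15 and -0.098 in MI + UA versus Sham (-0.098 without Sham rat 32, and -0.16 at the lowest with rat 66 left out). The direction held in every alternative for 34 of 44 members in MI versus Sham, 17 in MI + UA versus MI and 35 in MI + UA versus Sham. Of the 27 members that crossed 0 in MI + UA versus MI, 17 did so with all rats kept, and 9 members crossed 0 in MI + UA versus Sham. For these comparisons with UA, values are given here only for genes called in some comparison, Optn and Phb2.

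When rat 66 was placed in MI, log2 fold changes crossed 0 in MI versus Sham for Atg101 (-0.037), Wipi2 (0.013) and Atg16l1 (0.023), and in MI + UA versus MI, among the genes given here, for Optn (-0.042), Pink1 (-0.042), Fundc1 (-0.066) and Nipsnap2 (-0.076). With rat 66 left out, Fundc1 came to -0.025 and Nipsnap2 to -0.037 in MI + UA versus MI. With single rats left out, log2 fold changes in MI versus Sham ran from -0.11 to 0.30 for Atg101, -0.13 to 0.00082 for Atg12, -0.16 to 0.013 for Atg14, -0.038 to 0.044 for Atg16l1, -0.077 to 0.081 for Atg5, -0.082 to 0.0079 for Bnip3l, -0.11 to 0.043 for Fkbp8, -0.093 to 0.044 for Pik3r4, -0.0035 to 0.086 for Ulk2 and -0.16 to 0.020 for Wipi2. In MI + UA versus MI, leaving out single rats other than rat 66, they ran from -0.068 to 0.069 for Atg2a, -0.012 to 0.074 for Fundc1, -0.057 to 0.060 for Map1lc3a and -0.032 to 0.056 for Nipsnap2, and in MI + UA versus Sham, among the genes given here, those of Phb2 ran from -0.14 to 0.060. The Nipsnap2 to Nipsnap1 ratio ran from -0.16 to 0.12 and the Gabarapl1 to Gabarap ratio from -0.089 to 0.0067 in MI + UA versus MI. The cause was not tested. None of these members had passed the threshold in the comparison where it crossed 0. Leaving out 1 rat from a group of 4 also leaves fewer samples, and the calls that were lost then had adjusted p from 0.0501 to 0.113. No paired analysis was possible because each rat belongs to 1 group and the rat numbers are not shared.

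Depth limits the least expressed members. Atg101 and Nipsnap1 had under 300 reads over 12 rats, and the SE of the log2 fold change in MI versus Sham ran from 0.07 (Calcoco1) to 0.32 (Atg101). The 9 lower genes had at least 3388 reads each, while the other members had a median of 2107, so that a change of like size in those could have been missed.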
